A study of Mus musculus with 9 samples.

Results

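Nearly closed sites that opened with both hairpins were chosen by their measured accessibility, as the peaks with a mean under 40 normalised reads in the 3 control libraries and a mean of at least 120 in the 3 libraries of each of 2 hairpins against Med4. There were 290 such sites among 146734 peaks, 0.198% of all peaks and 5.48% of the 5293 peaks with a control mean under 40. The cells, D2A1-d, are a breast carcinoma line of the mouse, labelled untreated, and were profiled by ATAC-seq. The cells carried a non-targeting control hairpin (NTC, labelled wild type) or short hairpin RNAs against Med4 (shMed4 #1 and shMed4 #4, labelled Med4 knockdown), with 3 biological replicates in each of the 3 groups. The labels do not say whether these came from separate transductions, so the p-values reflect only how far these libraries differ. The study's title names MED4 as a guard of metastatic dormancy, and the sites bear on which closed chromatin opens when it is depleted.

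ATAC-seq uses a transposase that cuts and tags open DNA, and the number of reads in a peak is taken as its accessibility. Med4 belongs to the middle module of Mediator, which carries signals from transcription factors bound at enhancers to RNA polymerase II at promoters. A site with few reads is mostly wrapped in nucleosomes or otherwise closed to the enzyme, and tissue-restricted genes are commonly kept in that state in cells that do not use them. In bulk libraries, more cells with an open site and more opening per cell cannot be told apart. Accessibility does not measure the depletion of a transcript, so these data do not check the hairpins.

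Of the 290 sites, 28 overlapped a promoter window of the RefSeq table (GRCm38.p6, 250 bases before to 50 after an annotated start). The windows of 7 of these genes are shown, each under a site that, like all 290, was nearly closed in NTC. Which 7, and which motifs are in capitals, was decided after the motif counts were seen, so the 7 do not represent the 28. Capitals mark matches on either strand to the AP-1 motif TGANTCA, the TEAD motif GGAATG, the CREB motif TGACGTCA or the REST half-site TTCAGCACC. Of the 33 windows overlapped by a site, 4 held the AP-1 motif, 7 the TEAD motif, 2 the CREB motif and 1 the REST half-site. The TEAD matches of Brinp3 and of Mlh3 each lie in overlapping windows and are counted more than once. Syn1 encodes synapsin, a synaptic vesicle protein, at chrX:20920869-20921168, minus strand, and its window holds the REST half-site and a CREB motif. Kif5c encodes a neuronal kinesin, at chr2:49619036-49619335, plus strand, with a CREB motif. Brinp3, a gene expressed mainly in the nervous system, has its first start at chr1:146495379-146495678, plus strand, with a TEAD motif. Prrx1, a mesenchymal homeobox gene, lies at chr1:163313601-163313900, minus strand, with a TEAD motif. Adam19, a membrane metalloprotease gene, lies at chr11:46055734-46056033, plus strand, with an AP-1 and a TEAD motif. Tafa1, which encodes a secreted neural protein, lies at chr6:96112904-96113203, plus strand, with an AP-1 motif. The window of an internal start of Rbms3, an RNA-binding protein gene, at chr9:117252434-117252733, minus strand, held none of these 4 motifs.
Syn1: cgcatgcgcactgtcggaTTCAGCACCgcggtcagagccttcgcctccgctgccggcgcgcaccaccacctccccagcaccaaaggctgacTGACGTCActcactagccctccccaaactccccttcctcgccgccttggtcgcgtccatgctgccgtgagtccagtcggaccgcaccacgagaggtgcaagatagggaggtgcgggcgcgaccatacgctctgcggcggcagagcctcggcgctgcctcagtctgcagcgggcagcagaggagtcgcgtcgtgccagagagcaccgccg
Kif5c: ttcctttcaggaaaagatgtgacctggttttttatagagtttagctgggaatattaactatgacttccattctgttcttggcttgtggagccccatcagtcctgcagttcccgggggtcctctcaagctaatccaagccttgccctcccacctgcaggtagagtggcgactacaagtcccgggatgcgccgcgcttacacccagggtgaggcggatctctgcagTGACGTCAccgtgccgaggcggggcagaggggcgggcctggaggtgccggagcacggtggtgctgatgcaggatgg
Brinp3: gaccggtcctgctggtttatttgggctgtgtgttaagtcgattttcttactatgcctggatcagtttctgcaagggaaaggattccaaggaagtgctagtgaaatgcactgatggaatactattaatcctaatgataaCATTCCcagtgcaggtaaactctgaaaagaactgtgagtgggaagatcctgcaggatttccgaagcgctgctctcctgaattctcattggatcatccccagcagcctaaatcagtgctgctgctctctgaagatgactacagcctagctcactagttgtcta
Prrx1: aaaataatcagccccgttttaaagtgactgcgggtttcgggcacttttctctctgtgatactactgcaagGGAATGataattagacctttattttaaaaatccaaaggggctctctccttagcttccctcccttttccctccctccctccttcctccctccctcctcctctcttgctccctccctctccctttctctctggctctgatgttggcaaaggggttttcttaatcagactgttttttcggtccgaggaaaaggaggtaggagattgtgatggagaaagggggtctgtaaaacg
Adam19: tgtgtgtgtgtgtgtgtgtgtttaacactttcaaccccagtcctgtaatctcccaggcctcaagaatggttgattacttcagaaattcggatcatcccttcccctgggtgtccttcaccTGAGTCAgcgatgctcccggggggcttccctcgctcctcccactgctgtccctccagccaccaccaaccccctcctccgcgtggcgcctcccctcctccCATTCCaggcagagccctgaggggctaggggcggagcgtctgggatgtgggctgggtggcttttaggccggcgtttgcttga
Tafa1: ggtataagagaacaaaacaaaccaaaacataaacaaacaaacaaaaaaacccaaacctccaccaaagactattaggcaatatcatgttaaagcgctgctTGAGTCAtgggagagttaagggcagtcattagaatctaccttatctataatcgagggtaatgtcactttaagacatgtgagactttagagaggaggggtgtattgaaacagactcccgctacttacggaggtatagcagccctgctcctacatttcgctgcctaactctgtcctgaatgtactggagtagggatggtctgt
Rbms3: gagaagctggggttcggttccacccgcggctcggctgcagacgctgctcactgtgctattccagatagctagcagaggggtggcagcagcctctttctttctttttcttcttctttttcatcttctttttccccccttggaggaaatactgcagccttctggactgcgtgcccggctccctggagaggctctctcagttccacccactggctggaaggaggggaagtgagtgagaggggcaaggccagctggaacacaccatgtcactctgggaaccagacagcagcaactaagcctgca

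The sites were selected on these levels, which are therefore a description. The NTC means of the 290 sites ran from 10.5 to 40.0 normalised reads with a median of 31.5, and the percentile of that median among all 146729 tested peaks was 1.86. With hairpin #1 the means ran from 120 to 846 with a median of 179, at percentile 47.7 of that group. With hairpin #4 they ran from 120 to 802 with a median of 175, at percentile 46.5. The sites thus went from among the lowest peaks to the middle of the range, and 34 of them with #1 and 38 with #4 reached 300 or more. By library, the median over the sites was 29.9, 30.8 and 31.1 in NTC, 188, 180 and 177 with #1, and 186, 173 and 171 with #4. Every hairpin library lay above every NTC library at each of the 290 sites. That held for 19.0% of all tested peaks. It also held for 2809 of the 4998 other tested peaks under 40 in NTC. Peaks with an NTC mean of at least 120, and at least 2-fold higher with each hairpin, showed it at all 1558. The rule makes such a separation likely at the sites, so it is a description. Higher levels with #1 were called at 27.9% of all tested peaks and with #4 at 26.2% (limma). The rule fixes a rise of at least 3-fold at the sites, so their own calls in these contrasts are no result and nothing is read from them. The median log2 fold, on the log2(value + 1) scale, was 2.64 with #1 and 2.62 with #4, and over both hairpins it ran from 1.69 to 4.59 with a median standard error of 0.15.

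**Figure D1:**
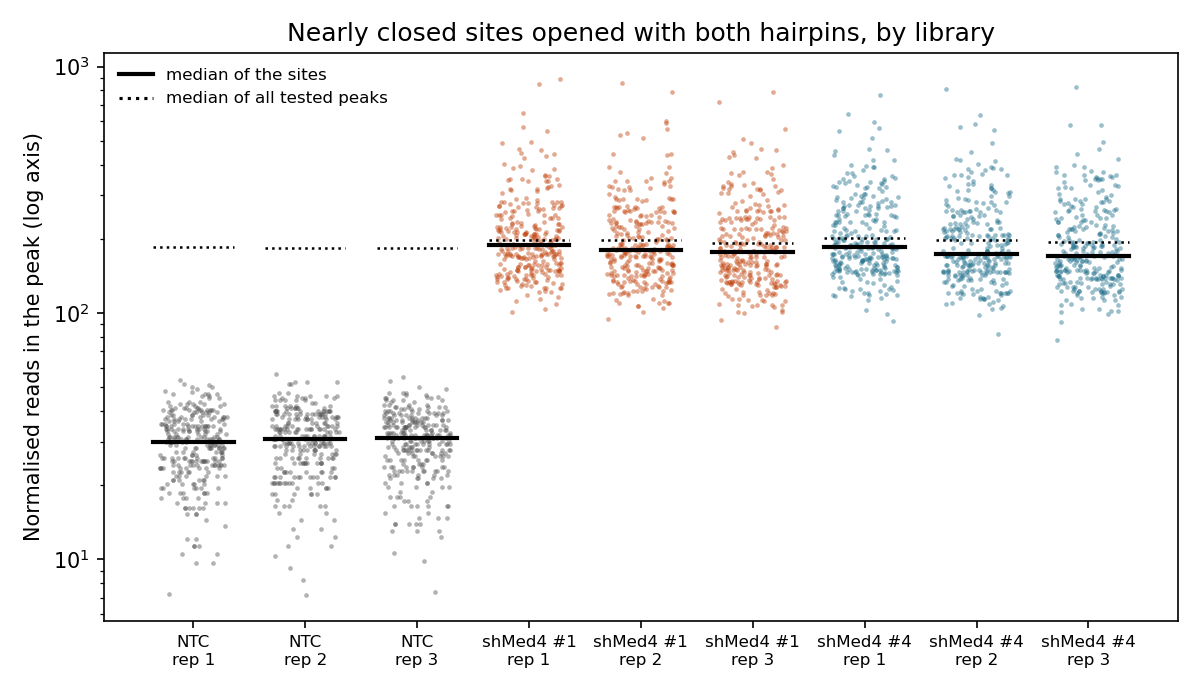
Normalised reads (log axis) of the 290 sites in each of the 9 libraries, 1 point per site, with the median of the sites as a solid bar and the median of all tested peaks as a dotted bar. The medians of the sites sit at 29.9 to 31.1 in the NTC libraries and at 171 to 188 in the hairpin libraries, where the median of all tested peaks is 193 to 202.

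Few reads stood behind the NTC values: the median site had 30 to 38 reads in an NTC library, and the least covered had 7. In the hairpin libraries the median was 97 to 235 reads. The coefficient of variation between replicates had a median of 20.6% in NTC, 7.97% with #1 and 10.5% with #4. Other tested peaks with means in the same interquartile range had 19.9%, 8.28% and 9.95%, so the sites were about as noisy as peaks of their level. When the rule was applied to 2 replicate numbers of each group and the third libraries were read separately, 277, 320 and 317 peaks were chosen, of which 242, 261 and 252 were among the 290. In the libraries left out, the median of the chosen peaks was 31.5 to 33.9 in NTC, 169 to 190 with #1 and 168 to 190 with #4. Both hairpin libraries left out exceeded the NTC library left out at every chosen peak in each of these 3 readings, and did so at least 3-fold at 255 of 277, 279 of 320 and 266 of 317 peaks. The libraries left out met all 3 thresholds of the rule at fewer peaks, 195 of 277, 190 of 320 and 184 of 317, and NTC was under 40 at 209, 220 and 241 of the chosen peaks. These libraries belong to the groups used to choose the peaks. The gap of at least 3-fold asked of the other libraries made a higher value in these likely. No share over all tested peaks was taken, so these counts are a description only.

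The thresholds cut through a continuous range. Within 10% of the NTC threshold, 65 sites lay inside it and 89 peaks that met both hairpin thresholds lay outside it. The nearest inside was at the start of Arrdc4 with an NTC mean of 39.96, and the nearest outside was inside Galnt9 with 40.06. At the hairpin #1 threshold the nearest values were 120.04 inside and 119.60 outside, with 35 and 51 peaks within 10%. At the hairpin #4 threshold they were 120.11 and 119.40, with 35 and 37 peaks within 10%.

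The highest fold over both hairpins was at chromosome 9, 117152259 to 117152760 (mm10, as deposited), inside Rbms3, which encodes an RNA-binding protein. Its value was 37.9, 29.8 and 18.8 normalised reads in the NTC libraries, 648, 589 and 556 with #1, and 766, 812 and 827 with #4. The hairpin groups did not overlap each other or NTC, and the log2 fold was 4.59 (SE 0.12). The site inside Robo2, an axon guidance receptor gene that responds to Slit proteins, at chromosome 16, 74467290 to 74467791, held 25.0, 13.3 and 13.9 reads in NTC, 342, 342 and 318 with #1, and 436, 422 and 349 with #4. All 3 #4 libraries exceeded the #1 libraries here, but the difference between hairpins was not called (log2 fold 0.26, SE 0.17, limma adjusted p = 0.21).

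Gabra5 encodes a subunit of the GABA-A receptor, the main inhibitory receptor of the brain. The site inside it, at chromosome 7, 57529693 to 57530194, held 30.7, 21.6 and 25.4 reads in NTC, 385, 354 and 399 with #1, and 511, 380 and 443 with #4, with overlap between the hairpins. Slc13a1 encodes a sodium-sulfate cotransporter, and the site 40757 bp from it on chromosome 6, 24047276 to 24047777, held 33.1, 39.0 and 36.8 reads in NTC. It held 279, 316 and 286 with #1 and 641, 636 and 580 with #4. The site inside Spata13, which encodes a guanine nucleotide exchange factor, at chromosome 14, 60749895 to 60750396, held 26.6, 46.2 and 35.2 reads in NTC, 550, 539 and 429 with #1, and 335, 343 and 321 with #4. At the Spata13 site hairpin #1 gave the higher values in every library, and at the Slc13a1 site hairpin #4 did.

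The other sites among the 12 genes with the highest folds had log2 folds over both hairpins from 3.57 to 4.50. They lay inside Ust, a glycosaminoglycan sulfotransferase gene (4.50), Sash1, a signalling scaffold gene (4.24), Suclg2, a succinyl-CoA ligase subunit gene (4.09), Zfp536, a zinc finger repressor gene (3.82), Dip2a (3.70), Brinp3 (3.62) and Flrt2, an adhesion gene (3.57). The 6 genes with the highest level in the weaker hairpin group were Rbms3, Ust, Zfp536, Suclg2, Gabra5 and Sash1, all of which are also among the 12.

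Some of the sites lay close together. Joined where the next site was within 50 kb, 79 of the 290 sites (27.2%) fell into 33 clusters of at least 2, and 211 stood alone. The gene with most sites was Rbms3, with 12, of which 10 lay inside it. Brinp3 and Gpc6, which encodes a glypican, a heparan sulfate proteoglycan of the cell surface, followed with 6 each, then Csmd3 and Sash1 with 5 each, and Zfp536 with 4. In all, 248 sites were assigned to 192 protein-coding genes, 26 of which had at least 2, and 42 sites had no such gene within 100 kb.

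The cluster with the most sites was inside Rbms3 at chromosome 9, 117251646 to 117348784, where 6 of the 7 peaks were sites of the set. The medians of those 7 peaks were 31.0 in NTC, 270 with #1 and 245 with #4, and no peak exceeded 34.3 in NTC. The 3 sites at the start of Brinp3 on chromosome 1, 146495361 to 146499179, lay in a span of 3.82 kb with 4 peaks, all called higher with both hairpins, and with medians of 17.4, 219 and 156. Between Robo1 and Robo2 on chromosome 16, 73411584 to 73474003, all 3 peaks were sites, with medians of 16.2, 153 and 170, but they lay 364343 to 418224 bp from the nearer gene. The remaining 5 of the 8 leading clusters held 3 sites each. They lay in Sash1, near Slc13a1, in Flrt2, at Zfp536 and in Gpc6. The median NTC values over all tested peaks in each span were, in that order, 16.3, 27.1, 18.2, 56.6 and 29.4.

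Many of the peaks next to the sites were also higher. Of the 510 tested peaks that adjoined a site and were not sites themselves, 301 (59.0%) were called higher with each hairpin, against 17.6% of all tested peaks. Their median log2 fold was 0.70 and their median NTC value 78.2, and 126 of them (24.7%) had NTC means under 40, against 3.6% of all tested peaks. Neighbours of the other peaks under 40 in NTC were called higher with each hairpin in 32.0%. Peaks of a set were left out of its own neighbours, so only 1.37% of these neighbours were under 40 in NTC. Of the other low peaks themselves, 2714 of 4998 were called higher with each hairpin. The 32.0% is therefore not a like comparison for the 59.0%. Nor is the 17.6%, because low peaks were often called higher and more of the neighbours of the sites were low in NTC. Neighbours of peaks already open in NTC (mean of at least 120) and at least 2-fold higher with both hairpins were so called in 40.4%. These shares were not tested, because neighbouring peaks are not independent and share the NTC libraries.

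Taken as runs of consecutive peaks called higher with each hairpin, 234 of the 290 sites (80.7%) lay in runs of at least 2 peaks and 42 (14.5%) in runs of 20 or more. Of all peaks called higher with each hairpin, 54.6% lay in runs of at least 2 and 0.981% in runs of 20 or more. These shares were not tested. Only 10 runs of that length were found in the whole data, and 8 of them held a site. The longest run, 41 peaks over 1160 kb in and around Rbms3, held 12 sites. Its median was 18.7 in NTC, 129 with #1 and 152 with #4, and 34 of its 41 peaks were under 40 in NTC while 3 were at 120 or more, up to 212. The Brinp3 run of 21 peaks over 2470 kb held 9 sites and a median of 20.5 in NTC, yet 1 of its peaks had 411 reads in NTC. The Gpc6 run (30 peaks, 6 sites) reached 172 in NTC at its highest peak, the Zfp536 run (30 peaks, 5 sites) 551, and the Flrt2 run (20 peaks, 3 sites) 374. The Sash1 run (21 peaks, 5 sites) had no NTC peak above 75.8. Peaks under 40 in NTC numbered 16 of 21 in the Brinp3 run, 23 of 30 at Gpc6, 17 of 21 at Sash1 and 13 of 20 at Flrt2, but 14 of 30 at Zfp536, where the median was 50.5. The other runs of 20 or more with a site held 1 each and were less low in NTC: 10 of 23 peaks were under 40 in the run near Tmem72 and Cxcl12 (median 42.1), and 4 of 22 in the run near Tfap2b and Pkhd1 (median 103).

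**Figure D2:**
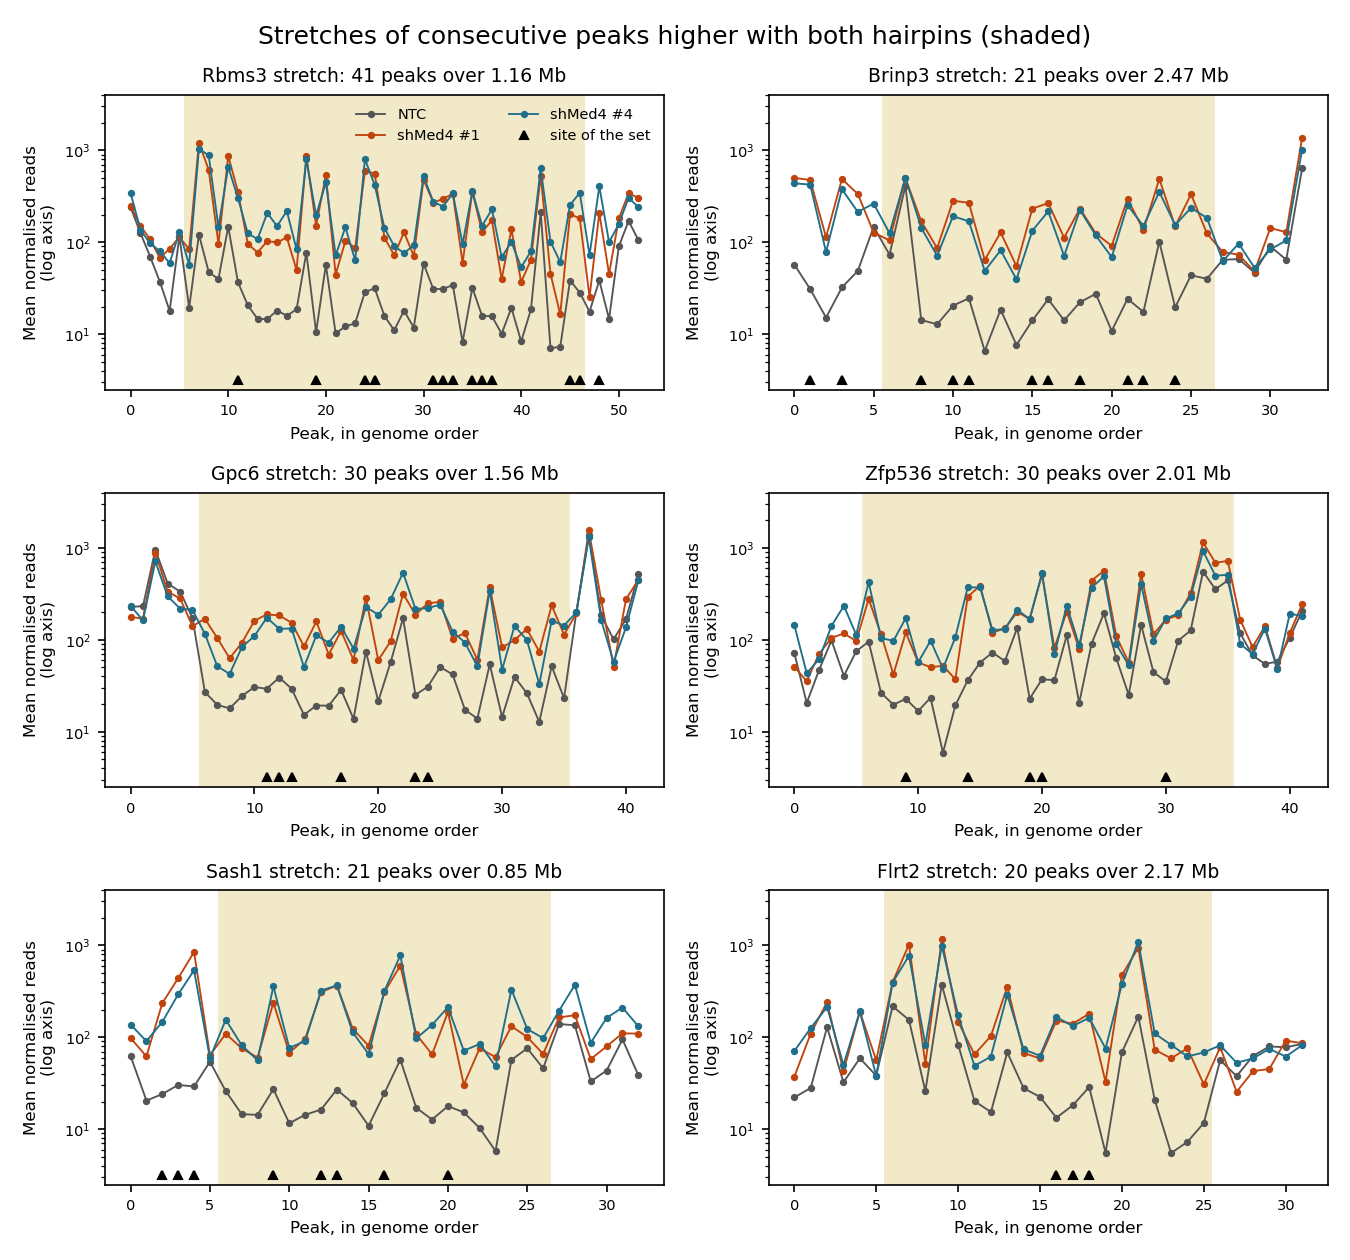
Mean normalised reads (log axis) of NTC, shMed4 #1 and shMed4 #4 at consecutive peaks in genome order, for the 6 runs with the most sites of the set, with 6 flanking peaks on each side. The shaded peaks were called higher with each hairpin, and triangles mark the sites of the set, 12 of them in the Rbms3 run.

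A part of the sites lay at promoters. Of the 290 sites, 35 (12.1%) had their centre within 1 kb of an annotated start, against 9.43% of all tested peaks, 2.58% of the other peaks under 40 in NTC and 4.04% of the already open raised peaks. Either end of a protein-coding gene was within 1 kb of 31 (10.7%), against 11.1%, 3.02% and 4.81%. The centre lay 59 bp from the start of Syn1, 9 bp from that of Kif5c, 18 bp from the first start of Brinp3 and 8 bp from that of Tafa1. The Syn1 site, at chromosome X, 20920727 to 20921228, held 25.8, 20.5 and 27.8 reads in NTC, 259, 266 and 279 with #1, and 267, 315 and 330 with #4. Every hairpin library was far above NTC there, and the hairpin groups overlapped. The Kif5c site held 36.3, 34.9 and 33.5 in NTC, 243, 245 and 246 with #1, and 337, 321 and 286 with #4, and here the hairpins differed (log2 fold of #4 against #1 0.36, SE 0.13, limma adjusted p = 0.028).

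Other sites near gene ends or annotated starts are given by gene. Those at Prrx1 and Adam19 lay 19 and 68 bp from an annotated start but more than 1 kb from a gene end. The site at Map3k9, a kinase of the JNK pathway, had an NTC level of 38.0 ± 7.36 reads (mean ± SD over the 3 libraries of a group, as in the values that follow), 410 ± 33.7 with #1 and 365 ± 24.7 with #4. At Prrx1 the values were 19.9 ± 3.43, 129 ± 3.47 and 151 ± 25.4, and at Adam19 33.8 ± 10.4, 252 ± 8.72 and 270 ± 16.0. The site at Meis2, a homeobox gene, had 29.4 ± 5.51, 244 ± 33.0 and 286 ± 24.8. It lay 10 bp from the start of the transcript G630016G05Rik. At Pwwp3b on chromosome X the values were 12.7 ± 3.95, 134 ± 3.10 and 158 ± 7.06, the lowest NTC mean among the 10 gene-end sites with the highest folds. That group also held sites within 1 kb of an end of Grb14, an adaptor gene of insulin signalling, of Trerf1 and of Fras1, a basement membrane gene, with log2 folds over both hairpins of 3.02, 2.99 and 3.19. The Trerf1 and Fras1 sites were 7624 and 85137 bp from the nearest annotated start.

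**Figure D3:**
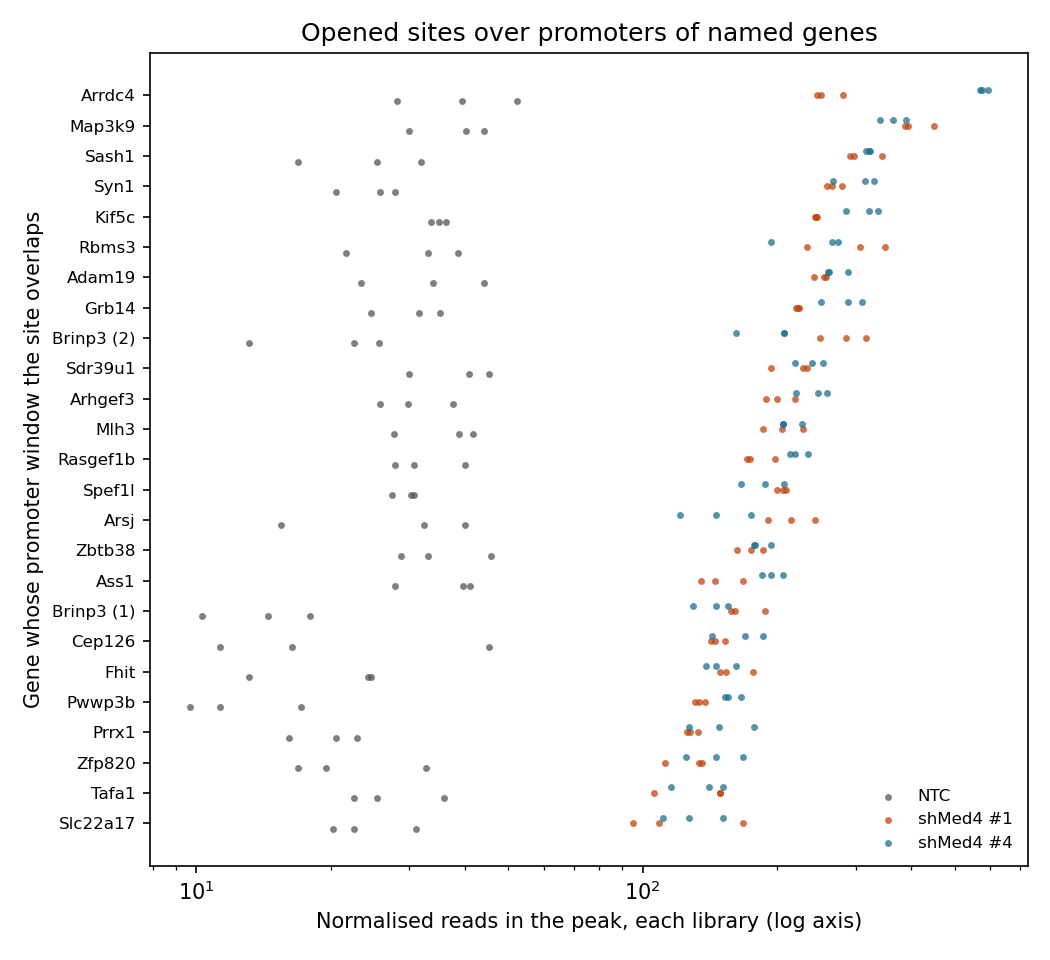
Normalised reads (log axis) in each of the 9 libraries at the sites that overlap a promoter window of a named gene, 1 row per site, ordered by their level with the hairpins. In every row the 3 NTC points lie left of all 6 hairpin points. At Arrdc4 the #4 points, 570 to 593, lie right of the #1 points, 246 to 281.

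The promoter windows within 1 kb of a site were compared with others by sequence. There were 40 windows of 35 genes, with a median G+C content of 56.8% and a median of 13.5 CpG dinucleotides. The 14627 windows within 1 kb of any tested peak had 59.7% and 19, and all 32619 windows on these chromosomes had 53.0% and 7. At least 20 CpG dinucleotides were present in 37.5% of the windows at the sites, 48.6% of those at tested peaks and 14.2% of those at the other peaks under 40 in NTC. The AP-1 motif was found in 4 of the 40 windows (10.0%), against 7.27% at tested peaks and 7.85% of all windows, but 16.2% at the other peaks under 40 in NTC and 21.8% at the already open raised peaks. The TEAD motif was found in 9 (22.5%, against 13.0% and 14.6%, 18.2% at the other low peaks and 12.8% at the already open raised peaks). Overlapping windows of Brinp3 hold the same TEAD match, as do those of Mlh3, so these matches are counted more than once. The CREB motif was found in 2 (5.0%, against 2.92% and 1.80%, and 0 of 148 at the other low peaks), those of Syn1 and Kif5c. The REST half-site was found in 1, that of Syn1 (2.5%, against 0.356% and 0.374%). That motif was added after the data were seen: a longer REST motif of 15 letters was tried first and had 0 matches in the 40 windows (12 of all 32619), and it was replaced by a different, shorter string after the Syn1 sequence had been read, with its first letters taken from that window, so the Syn1 match is no independent observation. The RUNX motif TGTGGT was found in 0 of the 40, against 14.0% and 16.6%, and 22.3% at the other low peaks. The GC box GGGCGG was found in 47.5%, against 57.4% and 35.9%, and 29.7% at the other low peaks. The E-box CANNTG was found in 70.0% (64.7% and 72.3%), the NF-kB motif in 2.5% (1.81% and 1.64%), the CCAAT motif in 37.5% (37.4% and 37.6%) and the TATA motif TATAAA in 7.5% (7.82% and 13.7%). Both strands were searched, the matches in capitals above do not overlap, and these shares rest on few windows, some of which belong to the same gene.

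Sites away from promoters made up most of the set. The body of a protein-coding gene held 168 (57.9%). For all tested peaks that share was 52.7%, and for the other peaks under 40 in NTC it was 42.7%. The median distance to the nearest gene end was 40.5 kb, against 17.3 kb for all tested peaks, 52.8 kb for the other low peaks and 25.4 kb for the already open raised peaks. More than 100 kb from any gene end lay 79 sites (27.2%), against 14.8% of all tested peaks. For the other low peaks that share was 36.3%, and for the already open raised peaks 17.2%.

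By chromosome, the largest shares were on chromosome 1, with 41 sites (14.1% of sites and 6.93% of tested peaks), and then 9 and 10, with 24 each (8.28% each, and 4.98% and 4.73%). Chromosome X held 19 sites (6.55% and 1.81%), or 7.17 sites per 1000 tested peaks, the highest rate of the 20 chromosomes. Of the peaks under 40 in NTC, 8.23% on chromosome X and 8.67% on chromosome 1 were sites, against 5.48% over all chromosomes. Chromosomes 4, 17 and 18 had the lowest rates, with 0.803, 0.737 and 0.746 sites per 1000. Joined where the next site was within 1 Mb, the 290 sites formed 191 loci, of which 24 were on chromosome 1, 9 on chromosome 9, 12 on chromosome 10 and 15 on chromosome X. The 24 sites of chromosome 9 thus came from fewer separate places than the 19 of chromosome X. The sites on X lay, among others, at Syn1, inside Timp1, which encodes an inhibitor of metalloproteases (35.2 in NTC, 232 and 217 with the hairpins), inside Hdac6, a deacetylase gene (33.9, 159 and 173), and inside Frmpd4, a synaptic scaffold gene, which held 2.

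**Figure D4:**
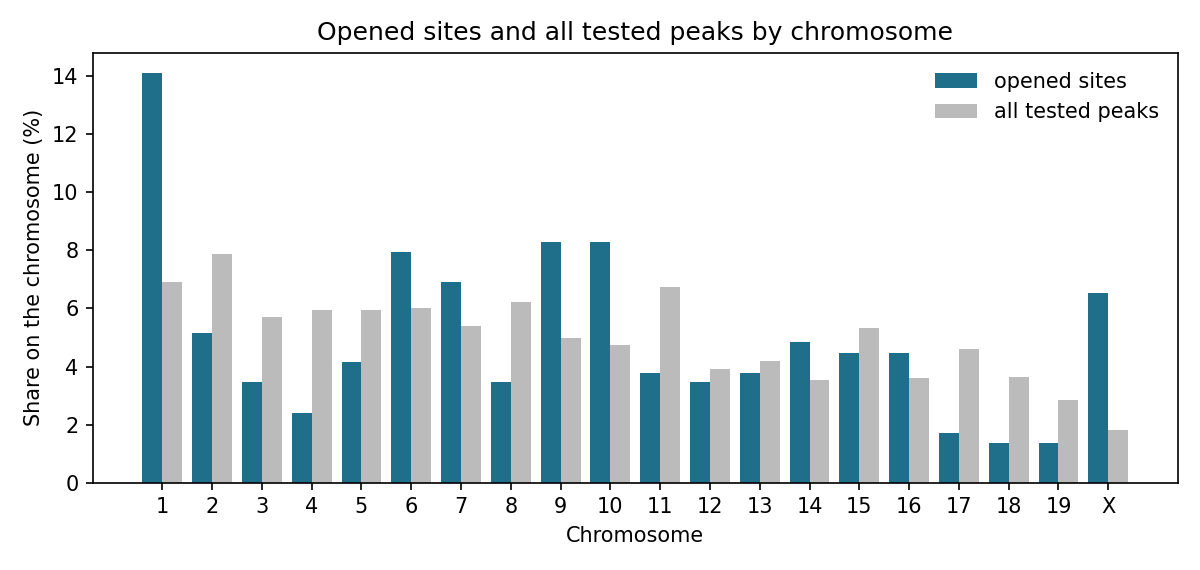
Share (%) of the 290 sites and of all tested peaks on each chromosome. Chromosomes 1, 9, 10 and X hold 14.1%, 8.28%, 8.28% and 6.55% of the sites, against 6.93%, 4.98%, 4.73% and 1.81% of tested peaks.

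Gene lists chosen with earlier results of these data known were counted by whether a gene had a site inside it or was the nearest gene within 100 kb. Of all 17638 protein-coding genes with a tested peak so assigned, 192 (1.09%) had a site, or 1.87 sites per 1000 peaks. Among axon guidance and neural adhesion genes it was 6 of 52 (7.28 per 1000 peaks): Flrt2 with 3 sites, and 1 each at Robo2, Adgrl3, a latrophilin gene, Ncam1, a neural adhesion gene, Nrp1, a semaphorin and VEGF co-receptor gene, and Sema6d, a semaphorin gene. The Nrp1 site went from 32.8 reads in NTC to 338 with #1 and 203 with #4, and the Ncam1 site from 33.1 to 188 and 157. Among neuronal markers it was 4 of 26 (27.1 per 1000 peaks): Brinp3 with 6 sites, Brinp2 with 2, and 1 each at Gria1, an AMPA receptor gene, and Rbfox1, a neuronal splicing factor gene. Brinp3 is in that list although its stretch was already known when the lists were made, and without its 6 sites 4 remain in the list. Genes of these lists have more peaks than most, with medians of 17.5 and 9 per gene against 5 over all genes.

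Of homeobox and developmental factor genes, 5 of 54 had a site (10.2 per 1000 peaks): Zfp536 with 4, Meis2 with 2, and Prrx1, Sox4 and Sox5 with 1 each. Of matrix remodelling enzymes it was 3 of 41 (11.8 per 1000 peaks), Ust with 3 sites and Mmp2, the gelatinase A gene, and Timp1 with 1 each. The site inside Mmp2 went from 30.3 reads in NTC to 174 and 170. Of epithelial junction genes it was 3 of 35 (9.62 per 1000 peaks). The site inside Dsp, the desmoplakin gene, went from 28.1 to 299 and 178, and the others lay 35786 bp from Elf3 and 48800 bp from Grhl3, both epithelial transcription factor genes. A single gene had a site among cadherins (Cdh10, 1 of 26), matrix proteins (Col11a1, 1 of 47), TGF-beta, BMP and Wnt genes (Bmp6, 1 of 61) and AP-1, TEAD and NF-kB factors (Yap1, 1 of 25). In that order the rates were 2.59, 1.23, 1.09 and 2.65 per 1000 peaks, against 1.87 over all genes. The site inside Yap1, the coactivator that works with TEAD factors, went from 35.9 to 295 and 226. No site was assigned to any of the 31 smooth muscle genes, 31 integrin and focal adhesion genes, 33 tumour dormancy regulators, 18 endothelial, 19 immune or 17 fibroblast markers. Those lists held, in that order, 535, 628, 435, 187, 81 and 168 peaks. At the 1.87 sites per 1000 peaks over all genes, lists of that size can easily hold none. Their lack of sites is therefore not read as a result. Each list was counted without a test.

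The difference between the hairpins was not used by the rule, although its floors in both groups bound how far a site near 120 can differ. Of the 290 sites, 82 (28.3%) differed between hairpin #4 and hairpin #1, 40 higher with #4 and 42 lower (limma, adjusted p under 0.05 over all tested peaks). Over all tested peaks 41.6% differed, 20.4% higher and 21.2% lower. That gap was not seen when the fit was made on the 6 hairpin libraries only: 117 sites (40.3%) were then called, 56 higher and 61 lower, against 39.5% of all tested peaks. Among other tested peaks with a like mean over the hairpins, 152 to 234 normalised reads, 43.3% differed, and 39.8% of those that also met the floors, against 31.2% of the 144 sites in that range. The size of the difference was alike, with a median absolute log2 fold of 0.25 for the sites and 0.23 to 0.25 for those peaks, but the standard error was larger at the sites (median 0.17 against 0.12). These values are from the fit over all 9 libraries, which has 1 spread per peak estimated with NTC included. In that fit the count called higher fell to 25 without #1 replicate 3 and to 26 without #4 replicate 1. Across the sites the log2 means of the hairpin groups had a Pearson correlation of 0.66 and a Spearman correlation of 0.59 (290 sites, a description only, since sites share libraries and the floors remove low values).

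Of the 290 sites, 10 (3.45%) differed at least 2-fold between the hairpins, against 4.35% of all tested peaks. The site inside Vash2, which encodes a vasohibin that trims tubulin tails, at chromosome 1, 190971341 to 190971842, held 25.8, 27.7 and 30.3 reads in NTC, 440, 373 and 461 with #1, and 171, 136 and 145 with #4. It opened less with #4 in every library (log2 fold of #4 against #1 -1.49, SE 0.15, limma adjusted p = 1.9e-10). The site inside Esr1, the oestrogen receptor alpha gene, at chromosome 10, 4900288 to 4900789, held 40.4, 46.2 and 31.9 in NTC, 307, 288 and 320 with #1, and 126, 120 and 123 with #4 (-1.30, SE 0.15, limma adjusted p = 1e-08). The sites near H2al1n, a histone variant gene on chromosome X, inside Brinp3 and near Gria1 were also lower with #4, by log2 folds of -1.16, -0.81 and -0.81.

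In the other direction, the site 27583 bp from Arhgap32, a GTPase-activating protein gene, at chromosome 9, 31988792 to 31989293, held 42.8, 26.7 and 27.0 reads in NTC, 139, 153 and 158 with #1, and 391, 388 and 323 with #4 (1.28, SE 0.16, limma adjusted p = 3.7e-08). The promoter site of Arrdc4, an arrestin domain gene, held 28.2, 52.4 and 39.3 in NTC, 281, 251 and 246 with #1, and 593, 570 and 577 with #4 (1.16, SE 0.14, limma adjusted p = 1.8e-08). The site 82859 bp from Kit, the stem cell factor receptor gene, at chromosome 5, 75739331 to 75739832, held 34.7, 24.6 and 53.2 in NTC, 148, 135 and 129 with #1, and 354, 292 and 277 with #4. At these 3 sites the #1 and #4 libraries did not overlap. Sites of a gene could differ together: all 3 at Ust were lower with #4, by -0.67, -0.58 and -0.66, whereas of the 12 at Rbms3 2 were called higher with #4, 1 lower and 9 not called.

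**Figure D5:**
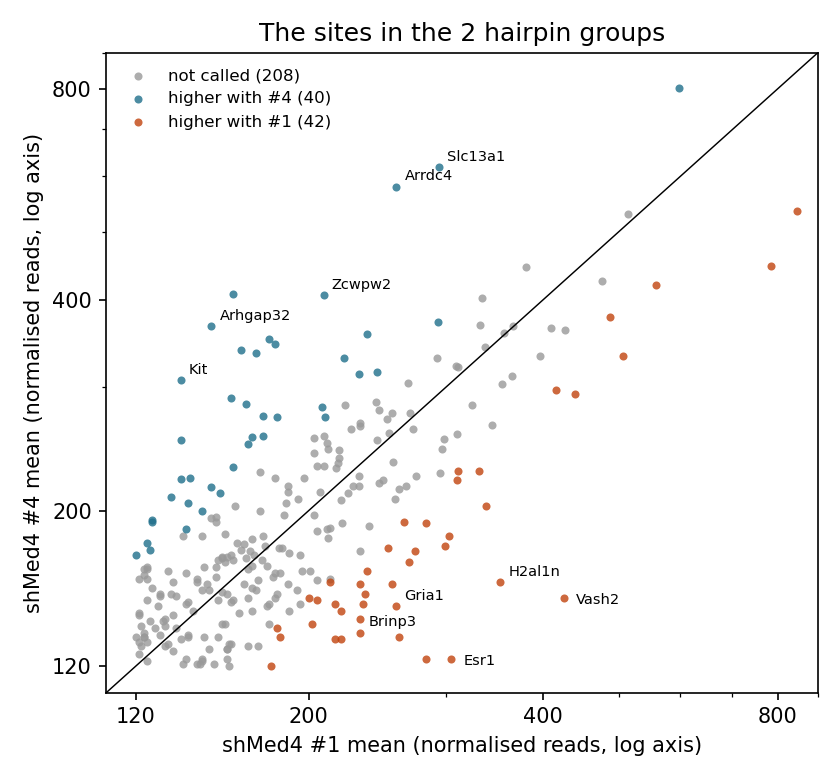
Mean normalised reads of the 290 sites with shMed4 #1 (horizontal, log axis) and shMed4 #4 (vertical, log axis), with the line of equality. The 40 sites called higher with #4 and the 42 called lower are coloured, the 208 others are grey, and the sites of 10 named genes, 5 in each direction, are labelled.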

How the data were processed

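The authors deposited signal per peak: reads in each of 146734 peaks, normalised with DESeq2, as the deposited file's name says. Per the submitters' processing notes the tools were Trim Galore, BWA, MACS2, featureCounts and Subread, and the builds mm10 and GRCm38. Their versions and any pooling of reads for peak calling are not given. Dividing each column by its own step gave whole numbers (within 0.001), and thus 44.8 to 98.9 M reads in peaks per library and a median of 110 to 247 reads per peak. Peak coordinates are as the deposited names give them; whether they count from 0 is not stated.

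limma 3.58.1 (R 4.3.3; lmFit, eBayes with trend) was fitted to log2(value + 1) of the 146729 peaks whose mean reached 10, with all 9 libraries and 1 mean per group, and p-values were adjusted by Benjamini-Hochberg over all of them. All 290 sites passed that filter. The pipeline was tested on simulated data. The members and gene lists were chosen with earlier results of these data known. Genes and promoters were those of RefSeq (GRCm38.p6). A peak was assigned to the protein-coding gene that holds its centre, or else to the nearest within 100 kb. Named genes were taken by fold, level, difference between hairpins, gene ends, clusters and lists, 1 site per gene and without predicted genes; the 8 clusters were ordered by sites, then by fold. Chosen after their values were seen were the genes named outside that rule (Hdac6, Frmpd4, Prrx1, Adam19, Tafa1 and list genes beyond 3 per list), the promoters and motifs shown, the REST half-site, the runs, the loci joined at 1 Mb, the peaks of like level and the distances to starts. The REST half-site replaced a longer REST motif that had no match at the sites, and its letters were set after the Syn1 window had been read. Python 3.11.15, numpy 2.4.6, pandas 2.3.3 and matplotlib 3.10.9 were used. Pairing by replicate number, other pseudocounts, filters, scalings, thresholds and each library left out were tried.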

Additional observations from a re-analysis of the deposited data

Results flagged for a closer look

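At 10 sites named for it, the response differed between the hairpins by the test of that difference (limma, adjusted p under 0.05). As log2 folds of hairpin #4 against #1, it was higher with #4 near Arhgap32 (1.28), at Arrdc4 (1.16), near Kit (1.15), near Slc13a1 (1.07) and near Zcwpw2 (0.96). It was lower with #4 inside Vash2 (-1.49), inside Esr1 (-1.30), near H2al1n (-1.16), inside Brinp3 (-0.81) and near Gria1 (-0.81). These sites were picked for the highest and lowest such folds among named genes. In this contrast 28.3% of the sites and 41.6% of all tested peaks were called.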

How the results depend on the processing

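The number of sites followed the thresholds: 118 and 549 with the NTC threshold at 30 and 50, and 615 and 176 with the hairpin threshold at 90 and 150. With equal totals 282 were found, of which 281 were among the 290, and with group medians 290, of which 253 were. Leaving out each library in turn gave 277 to 315 sites. Sites called higher with #4 numbered 25 to 44 and lower 30 to 49 over those settings. The share of all tested peaks called under each of them is not given here. The drop to 25 without #1 replicate 3 and to 26 without #4 replicate 1 thus cannot be told from a general loss of calls, and its cause was not tested. With a pseudocount of 10 the median log2 folds against NTC were 2.30 (#1), 2.33 (#4) and 2.31 (both), since a larger pseudocount shrinks folds from low values. Over the libraries left out they were 2.59 to 2.65, 2.60 to 2.65 and 2.60 to 2.64. With a gap of 20 kb, 52 sites lay in clusters. With the replicate block 42 sites were higher and 45 lower between the hairpins, again without the share of all tested peaks. Deviations of same-numbered libraries correlated by -0.011 to 0.073, and those of other-numbered libraries by -0.103 to 0.041. The numbers were not taken as pairing in the main fit. The 10 differences between hairpins named above kept their direction and call under all 16 alternatives run for them. They were picked as extremes from the same libraries, which made this likely, so it is a description. The planned edgeR, DESeq2 and TMM alternatives were not run, although whole reads can be recovered from the deposited values. NTC values rest on 30 to 38 reads at the median site, which limits the precision of folds against NTC.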
